A study of Mus musculus with 12 samples.

Results

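Kinesins are motor proteins that walk along microtubules or take their ends apart. The family was taken here as every row of the 12 count tables whose symbol begins with Kif or Kifc followed by a digit, which gave 42 of 23420 gene symbols. Of these, 35 had enough reads to be tested. Kif17, Kif26a, Kif26b, Kif2b, Kif4-ps, Kif6 and Kif7 did not pass the filter on low counts. By their known roles the rows were divided into 15 mitotic kinesins (14 tested), 17 transport kinesins (16 tested), 6 kinesins of cilia and signalling (4 tested) and 4 others, of which Kif12 was tested.

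The 12 libraries came from wild-type mouse colon, in 4 groups of 3. For all groups the labels name as source a mouse aged between 6 and 10 weeks. The crypts were used as isolated. For the monolayers, crypt cells were expanded on collagen, then moved to scaffolds with graded cross-linking and lysed whole once confluent, on day 3, day 4 or day 5. Transepithelial resistance is given in the labels, in ohm cm2, as 526 ± 56 for day 3, 623 ± 15 for day 4 and 407 ± 53 for day 5, with no word on the type of error. The labels do not say if the libraries within a group had different mice or cultures as their source, so p-values reflect only how far these libraries scatter, which may be technical.

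During division kinesins push the spindle poles apart, attach to chromosome arms, trim microtubule ends and build the midzone where the daughter cells separate, and many of them are made mainly in the G2 and M phases of the cell cycle. Between divisions other kinesins carry vesicles, endosomes and mitochondria towards microtubule plus ends, and kinesin-2 drives transport into cilia. In the colonic crypt, dividing cells lie in the lower part and stop cycling as they move up and mature, while the mature epithelial cell keeps an array of microtubules along its length for transport between its apical and basal sides.

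Gene counts per library ranged from 4518314 to 14290393, and a floor of 3 counts corresponded to between 0.215 and 0.605 CPM, the count scaled to library size. Levels below are CPM after TMM scaling, and each change is a log2 fold change ± SE, with the p-value of edgeR's quasi-likelihood test adjusted over all 12863 genes tested, with a call at an adjusted p under 0.05. Epithelial markers (Epcam, Cdh1, Krt8 and 4 others) summed to between 9154 and 10424 CPM in crypts and between 10861 and 14689 in monolayers. The 5 endothelial markers stayed under 4 CPM in sum in each library. Markers of mature lineages were lower in monolayers. The 8 goblet cell markers were all called lower, beside 32.8% of all genes tested. These 8 markers summed to between 30289 and 39509 CPM in crypts and between 19.6 and 81.2 CPM in monolayers.

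The mitotic kinesins were mostly lower in monolayers, and the transport kinesins were divided between higher and lower. Across the 3 monolayer days against crypts, 12 of the 14 mitotic kinesins tested fell and 1 rose, beside 32.8% of all genes tested called lower and 30.7% called higher. The median change of the mitotic kinesins was -1.84, and that of all genes tested -0.03. Of the 16 transport kinesins tested, 8 rose and 5 fell, with a median change of 0.30. The family's share of all gene counts was 0.281% ± 0.00292 in crypts, 0.278% ± 0.00446 on day 3, 0.285% ± 0.0126 on day 4 and 0.278% ± 0.00730 on day 5 (SD, n = 3 each), and the groups overlapped. After TMM scaling its summed level went from 2562 ± 69.3 CPM in crypts (mean ± SD, n = 3) to 2847 ± 46.4 on day 3, 2919 ± 59.1 on day 4 and 2921 ± 107 on day 5. In that sum the mitotic share was 20.9% ± 2.60 in crypts, 13.7% ± 1.01 on day 3, 11.6% ± 1.28 on day 4 and 6.61% ± 0.0448 on day 5 (SD, n = 3 each). The transport share was 77.4% ± 2.46 in crypts and 92.5% ± 0.0301 on day 5. These are mixtures of cells, in which fewer cells of a type and less RNA per cell cannot be told apart.

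**Figure D1:**
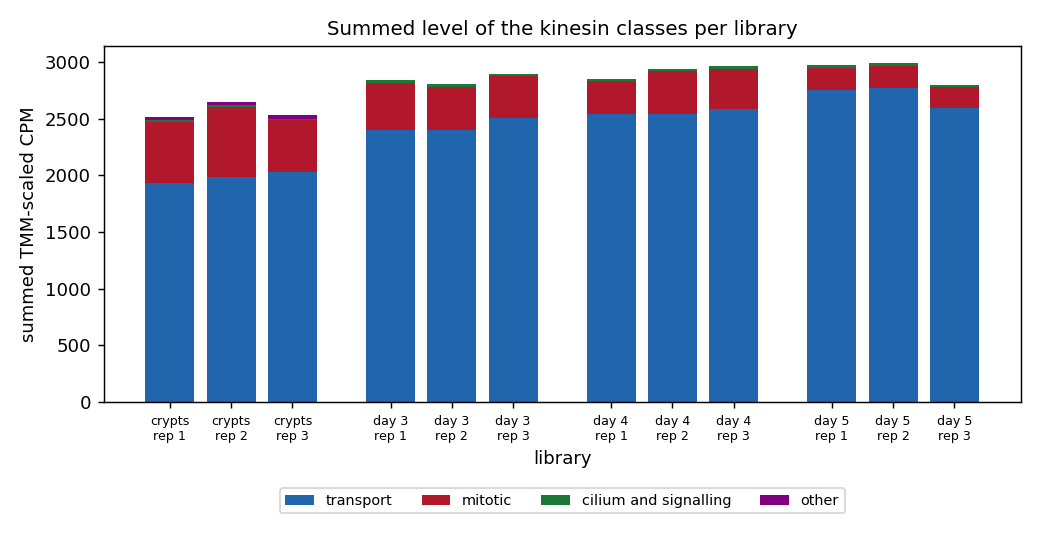
Summed TMM-scaled CPM of the 4 kinesin classes (colours) in each of the 12 libraries, 1 bar per library. The mitotic layer lies between 459 and 615 CPM in the crypts and between 186 and 197 CPM on day 5, and the transport layer between 1934 and 2025 CPM in the crypts and between 2589 and 2767 CPM on day 5.

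By day the 2 classes parted in steps. On day 3, 6 mitotic kinesins were lower than in crypts and 2 higher, beside 27.9% and 28.4% of all genes tested. On day 4, 10 were lower and 2 higher, beside 28.4% and 28.7%, and on day 5, 12 were lower and 1 higher, beside 28.9% and 28.4%. The day 4 count of 10 went down to 6 when crypts replicate 2 was left out. The median mitotic change was -0.89 on day 3, -1.16 on day 4 and -3.39 on day 5. For the transport kinesins, 6 were higher and 4 lower on day 3, 7 and 4 on day 4, and 8 and 3 on day 5, with medians of 0.07, 0.22 and 0.52. Of the 3 lower on day 5, Kif16b (-0.23 ± 0.09, edgeR adjusted p = 0.0448) lost its call without each one of the 12 libraries in turn (-0.25 to -0.19). The 3 day-against-crypt comparisons share the same crypt libraries.

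Between days the mitotic class moved mainly after day 4. From day 3 to day 4, 1 of the 14 mitotic kinesins (Kif15) fell and 1 of the 16 transport kinesins (Kif21b) rose, beside 1.17% of all genes called lower and 1.59% called higher. The medians were -0.27 for the mitotic and 0.08 for the transport kinesins. From day 4 to day 5, 11 mitotic kinesins fell, beside 4.2% of all genes, with a median of -2.12. In the same step 1 transport kinesin, Kif3b, rose, beside 3.36% of all genes, a call lost without any 1 of day 3 replicate 2, day 4 replicates 2 and 3 and day 5 replicates 1 and 2 (0.32 to 0.40). With 1 library left out at a time this count ran from 0 to 2. From day 3 to day 5, 12 mitotic kinesins fell, beside 10.5% of all genes, with a median of -2.45. In the transport class 5 members rose over these days, beside 9.9% of all genes, 1 fell and the median was 0.13.

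**Figure D2:**
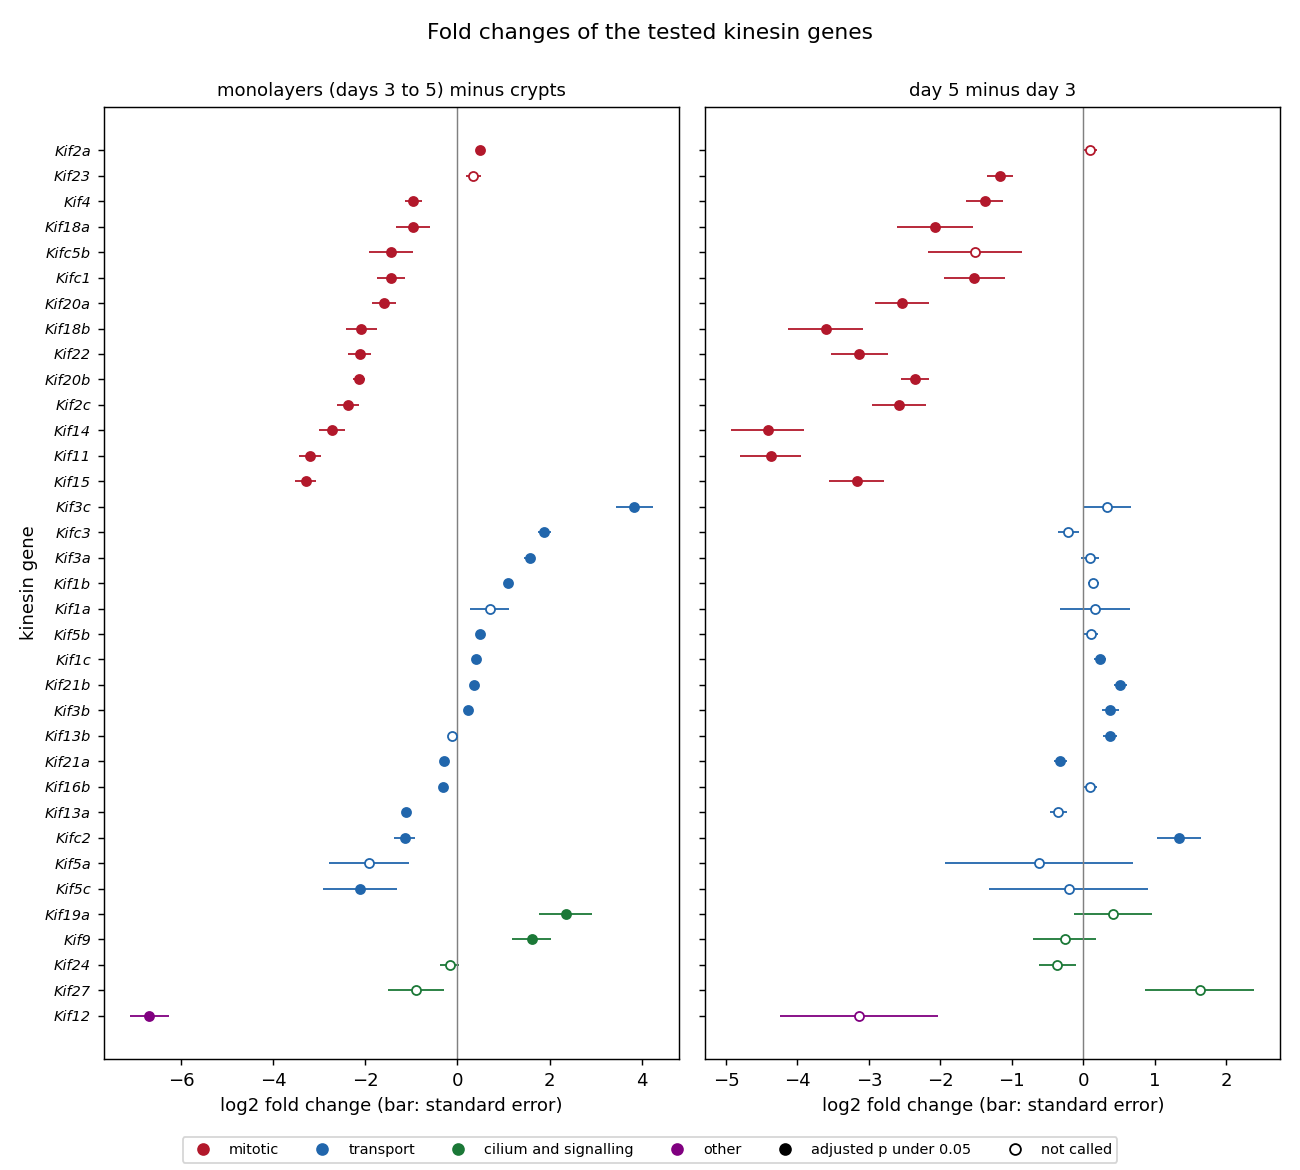
Log2 fold change of each of the 35 kinesins tested (points, with the standard error as a bar), for monolayers minus crypts on the left and day 5 minus day 3 on the right, with filled points where the edgeR adjusted p was under 0.05. In the right panel the mitotic kinesins lie between -4.42 and 0.10, and the transport kinesins between -0.62 and 1.35.

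A single figure per library put the 2 classes side by side. The median log2 CPM of the mitotic kinesins minus that of the transport kinesins, each gene taken relative to its crypt mean, was -0.00 ± 0.26 in crypts, -0.93 ± 0.18 on day 3, -1.43 ± 0.47 on day 4 and -3.74 ± 0.15 on day 5 (SD, n = 3 each). The libraries ranged from -0.28 to 0.25 in the crypts, from -1.06 to -0.72 on day 3, from -1.96 to -1.06 on day 4 and from -3.86 to -3.57 on day 5. The crypt and day 5 libraries each stood clear of the other groups, and day 3 and day 4 overlapped at their edges.

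The promoters of the 2 classes were then read in RefSeq sequence of GRCm38.p6, in windows of 250 bases before and 50 after the annotated start. A window was found for 33 of the 42 members, by gene symbol. Among the members tested, Kif19a, Kif20a and the transport kinesins Kif13b, Kif21b, Kif5a, Kif5b, Kifc2 and Kifc3 had none. The windows of Kifc1 and Kifc5b share a long, nearly identical stretch and are counted as 2. Genes of the G2 and M phases are known for a cell cycle homology region near the start, bound by the DREAM and MuvB complexes, often downstream of CCAAT boxes bound by NF-Y, while genes of the G1/S step often carry E2F sites. The letters searched, on both strands, were TTTGAA or TTTAAA for the core of the cell cycle homology region, CCAAT, and TTTCCCGC, TTTGGCGC, TTTCGCGC or TTTGCCGC for E2F. None of these letter strings holds another in full. Of 6 genes of the mitotic class and 1 of the transport class, the last 120 bases before the start follow, with matches in capitals. Kif11 and Kif22 were chosen for a pair of CCAAT and core matches, Kif15 for an E2F match that runs into a core match, Kif18b for 2 CCAAT matches, Kif23 and Kif2a because their RNA did not fall in monolayers as a whole, and Kif3a as a transport kinesin that rose.
Kif11 (chr19:37376262-37376381, plus strand): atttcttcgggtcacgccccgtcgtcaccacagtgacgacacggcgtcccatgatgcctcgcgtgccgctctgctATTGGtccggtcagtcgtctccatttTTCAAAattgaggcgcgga
Kif22 (chr7:127042421-127042540, minus strand): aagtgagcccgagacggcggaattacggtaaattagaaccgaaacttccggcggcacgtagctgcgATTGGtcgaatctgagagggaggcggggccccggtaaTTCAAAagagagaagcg
Kif15 (chr9:122950961-122951080, plus strand): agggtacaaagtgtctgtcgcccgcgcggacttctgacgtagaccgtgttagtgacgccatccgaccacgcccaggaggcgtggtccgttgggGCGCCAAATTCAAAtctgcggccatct
Kif18b (chr11:102925125-102925244, minus strand): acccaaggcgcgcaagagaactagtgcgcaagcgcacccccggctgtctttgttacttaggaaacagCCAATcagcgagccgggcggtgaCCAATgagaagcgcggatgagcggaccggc
Kif23 (chr9:61946800-61946919, minus strand): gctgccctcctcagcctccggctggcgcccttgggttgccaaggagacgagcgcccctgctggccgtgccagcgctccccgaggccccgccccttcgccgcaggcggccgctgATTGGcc
Kif2a (chr13:107022356-107022475, minus strand): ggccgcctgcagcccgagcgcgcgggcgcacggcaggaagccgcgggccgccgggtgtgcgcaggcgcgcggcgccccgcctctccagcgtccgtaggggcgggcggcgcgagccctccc
Kif3a (chr11:53567249-53567368, plus strand): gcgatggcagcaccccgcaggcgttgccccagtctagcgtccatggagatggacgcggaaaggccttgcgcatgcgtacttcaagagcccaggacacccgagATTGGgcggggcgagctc

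The core of the cell cycle homology region was in the window of 11 of 13 tested mitotic kinesins (84.6%), in 1 of 10 tested transport kinesins (10%, Kif1a, in the second of its windows) and in 30.6% of the 27025 genes of the table. A CCAAT match was in 8 of 13 mitotic windows (61.5%), 3 of 10 transport windows (30%) and 41.1% of all genes. Both were in the window of 8 of the 13 mitotic kinesins, of none of the 10 transport kinesins and of 13.4% of all genes. An E2F match was in 2 of the 13 (Kif15 and Kif18a), in none of the 10 and in 2.6% of all genes. Counting back from the start, the core match nearest to it began at -19 in Kif11 and Kif15 and at -17 in Kif22, and after the start at 4 in Kif18b and 3 in Kif23. Kif15 and Kif22 each held a further core match, at -234 and -215. Core matches began at -228 and -42 in Kif14, -234 and -103 in Kif2c, 8 and 14 in Kif20b, 20 in Kif4, 2 in Kifc1 and 30 in Kifc5b. Kif23 held both a CCAAT and a core match, as did 7 mitotic kinesins that fell. Kif18a, which also fell, had an E2F match but neither a core nor a CCAAT match. Kif2a, the 1 mitotic kinesin that rose, had no match of any of the 3 kinds, but its RefSeq start lies 229 bases before the nearest GENCODE M21 start, which the window does not reach. For Kif14, Kif2c and Kif4 the RefSeq start lies 1505, 3867 and 328 bases after the most upstream GENCODE M21 start of the gene, and for Kif13a 149 bases after it, so these windows may not be the ones used. Without these 5 genes the core was in 8 of 9 mitotic and 1 of 9 transport windows.

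**Figure D3:**
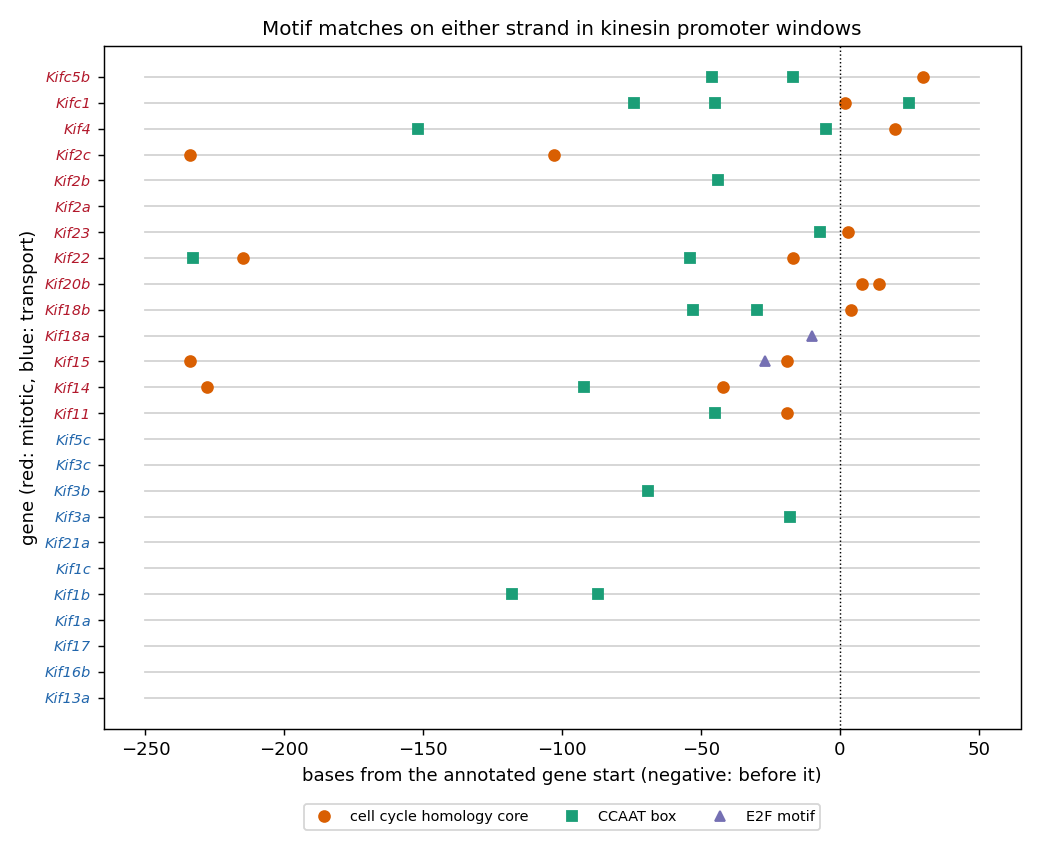
Starts of the motif matches (symbols) by distance from the annotated gene start in bases, in the first RefSeq window of each mitotic (red names) and transport (blue names) kinesin, with matches on either strand. Core matches of the cell cycle homology region (orange) lie on 11 of the 14 mitotic lines, Kif2b without a test included, and on none of the transport lines, where the match of Kif1a lies in its second window.

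Among the motors of the spindle body, Kif11 fell furthest by day 5. Kif11 (Eg5) slides antiparallel microtubules and pushes the spindle poles apart, and its libraries held 94.3, 79.5 and 68.8 CPM in the crypts, 34.2, 24 and 22.8 on day 3, 8.35, 23.8 and 27.5 on day 4 and 1.81, 1.26 and 0.867 on day 5. All 9 monolayer libraries were below the crypts, and the 3 of day 5 were below all others. The change was -3.19 ± 0.24 (edgeR adjusted p = 1.14e-09) over the 3 days, -5.96 ± 0.42 on day 5 against crypts, which is 62.2-fold lower, and -4.38 ± 0.43 (edgeR adjusted p = 8.8e-07) from day 3 to day 5. Kif15 (Hklp2), which can stand in for Kif11 in keeping the spindle bipolar, was at 52.3, 59.9 and 54.5 CPM in the crypts, 20.1, 13.8 and 13.3 on day 3, 3.53, 7.48 and 9.57 on day 4 and 2.02, 0.897 and 2.77 on day 5. Its groups stepped down at each day without overlap, with -3.29 ± 0.23 (edgeR adjusted p = 3.98e-10) over all days and -3.17 ± 0.38 (edgeR adjusted p = 8.89e-06) from day 3 to day 5. Its change from day 3 to day 4, -1.21 ± 0.31 (edgeR adjusted p = 0.0399), was no longer called without any 1 of day 3 replicates 1, 2 and 3 or of day 4 replicates 1 and 2, with values from -1.32 to -0.88. Kif18a, which dampens chromosome movements at the metaphase plate, had 8.01, 7.83 and 3.43 CPM in the crypts, 6.19, 2.8 and 5.46 on day 3, 5.34, 8.13 and 5.45 on day 4 and 0.605, 1.79 and 0.693 on day 5. Its day 3 and day 4 libraries overlapped the crypts, and the 3 of day 5 lay below all others. Its change was -0.96 ± 0.38 (edgeR adjusted p = 0.033) over all days, a call lost without crypts replicate 1 or 2 (-0.77 in both cases), day 3 replicate 2 (-0.87), day 4 replicate 1 or 3 (-0.92) or day 5 replicate 3 (-0.88). From day 3 to day 5 it was -2.08 ± 0.53 (edgeR adjusted p = 0.0086), and -2.86 without day 5 replicate 2. Exons of Kif18a and of Mettl15 overlap by 11 bases on opposite strands.

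The chromokinesins Kif22 and Kif4, which bind chromosome arms, fell as well, and so did Kif18b. Kif22 (Kid), which pushes the arms away from the poles, was at 30.0, 31.8 and 21.3 CPM in the crypts, 14.5, 14.3 and 13 on day 3, 7.49, 14.5 and 13.3 on day 4 and 1.81, 0.628 and 2.77 on day 5. The 3 levels of crypts, of day 3 with day 4, and of day 5 did not overlap, and the changes were -2.12 ± 0.25 (edgeR adjusted p = 5.91e-07) over all days and -3.14 ± 0.40 (edgeR adjusted p = 1.57e-05) from day 3 to day 5. Kif4, a chromokinesin that also organises the central spindle, was at 32.6, 52.9 and 34.7 CPM in the crypts, 36.5, 32.5 and 24.6 on day 3, 18.8, 30.3 and 21.9 on day 4 and 12.1, 15.2 and 7.97 on day 5. It overlapped the crypts on day 3 and lay below them on day 4 and day 5, with -0.96 ± 0.19 (edgeR adjusted p = 0.000265) over all days and -1.38 ± 0.26 (edgeR adjusted p = 0.000745) from day 3 to day 5. Of the exons of Kif4, 832 bases overlap Pdzd11 on the other strand, a gene at 18.0 ± 3.56 CPM in crypts and 17.6 ± 3.64 on day 5. Kif18b, which restrains astral microtubules, was at 10.4, 18.5 and 7.67 CPM in the crypts, 8.29, 10.1 and 5.46 on day 3, 4.48, 4.02 and 5.21 on day 4 and 0.403, 1.08 and 0.173 on day 5. Its crypt and day 3 libraries overlapped, those of day 4 lay below both and those of day 5 below all others. The change was -2.08 ± 0.33 (edgeR adjusted p = 2.28e-05) over all days and -3.61 ± 0.53 (edgeR adjusted p = 7.3e-05) from day 3 to day 5, the latter -4.76 without day 5 replicate 2.

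The 3 kinesin-13 genes, whose proteins take microtubule ends apart, went separate ways. Kif2c (MCAK), which works at centromeres, was at 22.4, 35.1 and 16.5 CPM in the crypts, 10.8, 9.18 and 8.11 on day 3, 5.94, 6.82 and 9.32 on day 4 and 2.22, 1.26 and 1.39 on day 5. The day 5 libraries were below all others and those of day 3 and day 4 below the crypts, with -2.37 ± 0.24 (edgeR adjusted p = 5.98e-08) over all days and -2.58 ± 0.37 (edgeR adjusted p = 6e-05) from day 3 to day 5. Kif2a, which acts at spindle poles and also in cells that have left the cycle, such as neurons, was at 70.7, 91.9 and 80.1 CPM in the crypts, 102, 109 and 116 on day 3, 123, 115 and 112 on day 4 and 116, 121 and 112 on day 5. Every monolayer library lay above every crypt library and the 3 days overlapped. Kif2a rose by 0.49 ± 0.09 (edgeR adjusted p = 7.9e-05), with 0.10 ± 0.10 (edgeR adjusted p = 0.565) from day 3 to day 5. Exons of Kif2a and Dimt1 overlap by 1229 bases on opposite strands, and Dimt1 was at 3.79 ± 0.364 CPM in crypts and 6.53 ± 2.22 in monolayers (n = 9). Reads that the counting found ambiguous between genes have their own summary line, with 0.154 to 0.207% of reads, and were not counted to either gene. How far the overlap touched the Kif2a values was not tested. Kif2b, which works at kinetochores, had no count in any library.

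Kifc1 (HSET) is a minus-end motor that bundles spindle microtubules, and Kifc5b is its near-identical relative, so reads shared by both genes were left out of the counts and the 2 genes are uncertain. Kifc1 was at 17, 14.6 and 7.31 CPM in the crypts, 8.69, 4.88 and 7.73 on day 3, 5.6, 7.1 and 5.33 on day 4 and 3.63, 1.34 and 2.77 on day 5, with crypts and day 3 overlapping and day 5 below all other libraries. Its change was -1.44 ± 0.30 (edgeR adjusted p = 0.000419) over all days. From day 3 to day 5 it was -1.52 ± 0.43 (edgeR adjusted p = 0.0166), a call lost without day 3 replicate 1 (-1.35), day 3 replicate 3 (-1.45) or day 5 replicate 2 (-1.15). Kifc5b changed by -1.44 ± 0.47 (edgeR adjusted p = 0.0126) over all days, a call lost without crypts replicate 1 (-0.99), and by -1.52 ± 0.66 (edgeR adjusted p = 0.12) from day 3 to day 5.

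Of the 4 kinesins of cytokinesis, 3 fell in monolayers, beside 32.8% of all genes tested, and the change of Kif23 was not called. Kif14, which works with citron kinase and Prc1 at the midbody, was at 40.5, 34.5 and 23.2 CPM in the crypts, 15.9, 14.6 and 12.7 on day 3, 9.65, 13.8 and 13.8 on day 4 and 0, 0.269 and 1.91 on day 5. Day 5 lay below all other libraries, with no count in replicate 1, and the changes were -2.72 ± 0.29 (edgeR adjusted p = 1.46e-07) over all days and -4.42 ± 0.51 (edgeR adjusted p = 4.99e-06) from day 3 to day 5. Without day 5 replicate 3 these were -3.31 and -6.20, and without day 5 replicate 2 the latter was -3.81. Kif20a (MKLP2), which brings the chromosomal passenger complex to the midzone, was at 21.4, 34.8 and 22 CPM in the crypts, 18.2, 19 and 13.6 on day 3, 6.55, 18 and 15.3 on day 4 and 4.23, 2.24 and 2.6 on day 5. The groups of crypts and day 3 were apart by a small gap and day 5 was below all others, with -1.59 ± 0.25 (edgeR adjusted p = 2.19e-05) over all days and -2.54 ± 0.38 (edgeR adjusted p = 7.98e-05) from day 3 to day 5. Exons of Kif20a and Cdc23 overlap by 1271 bases on opposite strands, and Cdc23 was at 24.1 ± 3.17 CPM in crypts and 26.2 ± 3.07 on day 5. Kif20b (MPP1), needed late in cytokinesis, was at 68.7, 80.1 and 78.7 CPM in the crypts, 34, 32.3 and 29.3 on day 3, 20.8, 28.1 and 29.3 on day 4 and 6.45, 7.26 and 4.51 on day 5. Crypts and day 5 stood clear of the other groups, and day 3 and day 4 met within rounding. The change was -2.14 ± 0.13 (edgeR adjusted p = 4.32e-11) over all days and -2.36 ± 0.19 (edgeR adjusted p = 1.56e-07) from day 3 to day 5.

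Kif23 (MKLP1) is the motor subunit of centralspindlin, which bundles midzone microtubules and calls in the regulators of the contractile ring. Its libraries held 60.1, 70.5 and 35.4 CPM in the crypts, 104, 95.5 and 90.9 on day 3, 70.7, 95.7 and 78.7 on day 4 and 43.7, 41.5 and 44.2 on day 5. Day 3 and day 4 lay above all crypt libraries, and day 5 lay within the range of the crypts and below the earlier days. Kif23 rose on day 3 (0.82 ± 0.18 (edgeR adjusted p = 0.00079)) and on day 4 (0.57 ± 0.18 (edgeR adjusted p = 0.0114)), and stood at -0.35 ± 0.19 (edgeR adjusted p = 0.122) on day 5. The day 4 call was lost without crypts replicate 3 (0.32) or day 4 replicate 2 (0.45), and when libraries were scaled by their totals alone (0.41, edgeR adjusted p = 0.0631). From day 3 to day 5 it fell by 1.17 ± 0.18 (edgeR adjusted p = 0.000144) on the log2 scale. Over all days the change was 0.35 ± 0.15 (edgeR adjusted p = 0.0539), and it was called without crypts replicate 1 (0.42), crypts replicate 2 (0.58) or day 4 replicate 1 (0.39), and was 0.097 without crypts replicate 3.

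Set against Mki67, a gene of cycling cells that went from 961 ± 111 CPM in crypts to 419 ± 80.8, 318 ± 73.3 and 37.6 ± 5.50 CPM on days 3, 4 and 5, Kif23 and Kif11 went opposite ways. The CPM ratio of Kif23 to Mki67 was 0.0568 ± 0.0138 in crypts, 0.235 ± 0.0265 on day 3, 0.262 ± 0.0425 on day 4 and 1.16 ± 0.145 on day 5 (SD, n = 3 each). That of Kif11 to Mki67 was 0.0847 ± 0.0145, 0.0642 ± 0.00243, 0.0594 ± 0.0210 and 0.0354 ± 0.0124. The Kif11 ratio on day 4 ranged from 0.0358 to 0.0761 and overlapped those of crypts, day 3 and day 5. On day 5 it rested on 9, 14 and 5 counts of Kif11. Together Kif23 and Kif2a made up 25.3% ± 1.03 of the mitotic CPM in crypts and 82.7% ± 1.02 on day 5. Without these 2 genes the mitotic sum was 401 ± 55.2 CPM in crypts, 183 ± 25.8 on day 3, 141 ± 37.3 on day 4 and 33.3 ± 2.90 on day 5. Of 15 genes of cycling cells, 14 fell in monolayers and 12 fell from day 3 to day 5, beside the same 32.8% and 10.5% of all genes, among them the replication licensing genes Mcm6 (-2.86 ± 0.22 in monolayers against crypts, edgeR adjusted p = 2.17e-09) and Mcm5 (-2.85 ± 0.37) and the cyclin gene Ccna2 (-2.51 ± 0.21). Their summed level lay between 1587 and 1924 CPM in crypts and between 136 and 158 CPM on day 5, and its part in the mitotic kinesin values was not tested.

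**Figure D4:**
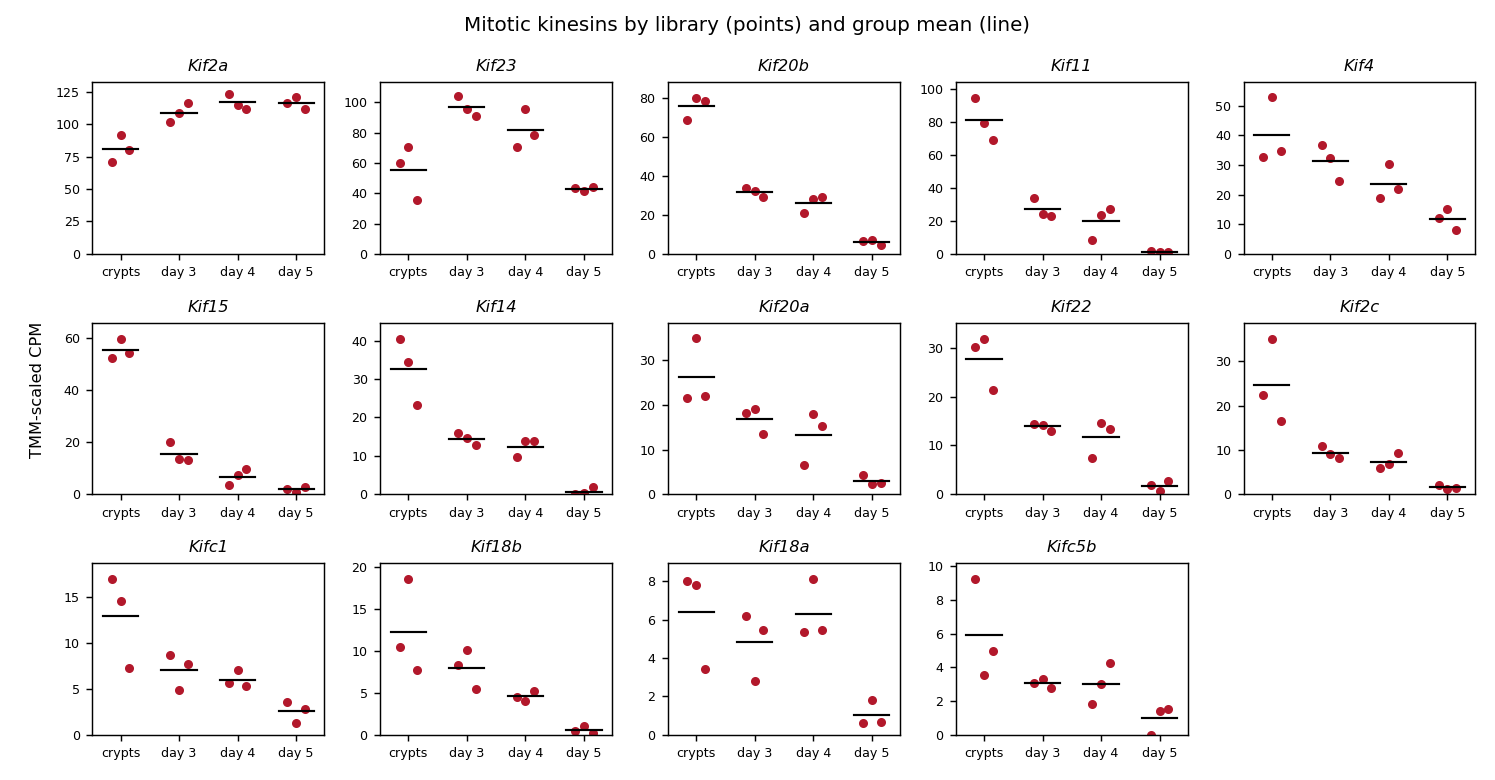
TMM-scaled CPM of the 14 mitotic kinesins tested, 1 panel per gene with its own axis from 0, as 1 point per library and a line at the group mean. Day 5 points lie below those of the other groups in 12 panels, and in the panels of Kif2a and Kif23 they do not.

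Partners of the mitotic kinesins fell with them. Of 24 spindle genes tested, 22 fell in monolayers and 1 rose, beside 32.8% and 30.7% of all genes, with a median of -1.68, and 22 fell from day 3 to day 5, beside 10.5% of all genes, with a median of -2.79. The largest falls against crypts among those that averaged 1 CPM or more were those of the kinetochore gene Nuf2 (-2.68 ± 0.36, edgeR adjusted p = 3.62e-06), of the checkpoint kinase gene Bub1 (-2.51 ± 0.25) and of Aurkb, the kinase of the chromosomal passenger complex (-2.35 ± 0.25). Racgap1 and Ect2 were looked up after the values of Kif23 were seen, since their products act with it. Racgap1, the other subunit of centralspindlin, was at 33.6 ± 8.35 CPM in crypts, 18.0 ± 1.58 on day 3, 14.6 ± 4.12 on day 4 and 2.54 ± 1.52 on day 5, with -1.99 ± 0.24 over all days (edgeR adjusted p = 6.04e-07). Ect2, the exchange factor that centralspindlin recruits, was at 36.6 ± 9.61 CPM in crypts, 59.9 ± 3.07 on day 3, 58.7 ± 10.3 on day 4 and 23.4 ± 9.02 on day 5, with 0.71 ± 0.22 on day 3 against crypts (edgeR adjusted p = 0.00997).

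Among the transport kinesins, the widely expressed heavy chain of conventional kinesin rose and the neuronal ones were near the floor. Kif5b, that widely expressed heavy chain of kinesin-1, was at 444, 544 and 589 CPM in the crypts, 691, 712 and 719 on day 3, 744, 762 and 726 on day 4 and 853, 758 and 689.7 on day 5. All monolayer libraries lay above all crypt libraries and the days overlapped, except that day 4 was above day 3. Kif5b rose by 0.49 ± 0.08 (edgeR adjusted p = 4.49e-05), and its share of the kinesin CPM was 20.5% ± 2.82 in crypts and 26.2% ± 2.15 on day 5. Kif5c, a heavy chain known from neurons, was at 2.2, 3.65 and 1.44 CPM in the crypts, 0.699, 0.287 and 1.44 on day 3, 0, 0.841 and 0 on day 4 and 0, 0.538 and 1.56 on day 5, close to the floor in most monolayer libraries. Its change was -2.12 ± 0.80 (edgeR adjusted p = 0.0282), a call lost without any 1 of crypts replicates 1 and 2, day 3 replicates 1 and 2, day 4 replicates 1 and 3 and day 5 replicate 2, where values lay between -2.17 and -1.68, and it was -3.61 without day 4 replicate 2. Kif5a, the other neuronal heavy chain, changed by -1.91 ± 0.86 (edgeR adjusted p = 0.0609), and was called without crypts replicate 2 (-2.51, edgeR adjusted p = 0.0134) or day 4 replicate 1 (-2.43), while it was -1.30 without crypts replicate 1. Called lower in monolayers were 32.8% of all genes tested and 1 of the 3 tested among the 9 markers of neurons and glia. They summed to between 3.26 and 9.56 CPM in crypts and between 2.90 and 7.53 in monolayers, with Elavl4 at 0 in every monolayer group, Tubb3, S100b and Gfap at 0 in crypts and Sox10 at 0 in crypts and monolayers alike, and their part in the Kif5a and Kif5c values was not tested.

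Kinesin-3 motors, which carry vesicles, endosomes and mitochondria, changed in both directions. Kif1b, which carries mitochondria and synaptic vesicle precursors, was at 192, 192 and 176 CPM in the crypts, 364, 375 and 388 on day 3, 411, 398 and 410.4 on day 4 and 445, 402 and 395 on day 5. Monolayers were all above crypts, and Kif1b rose by 1.10 ± 0.07 (edgeR adjusted p = 8.75e-11), 2.14-fold. Kif1c, which carries vesicles and endosomes with integrins, was at 446, 376 and 404 CPM in the crypts, 515, 486 and 536 on day 3, 508, 521 and 526 on day 4 and 583, 639 and 592 on day 5. It was above all crypt libraries at each day and highest on day 5, with 0.41 ± 0.07 (edgeR adjusted p = 3.42e-05) over all days. Its change from day 3 to day 5, 0.24 ± 0.08 (edgeR adjusted p = 0.0445), was lost without each one of the 9 monolayer libraries in turn (0.19 to 0.27). Kif13a, which carries recycling endosomes, fell by 1.11 ± 0.09 (edgeR adjusted p = 7e-09) on the log2 scale, and Kif16b, which carries early endosomes, changed by -0.31 ± 0.08 (edgeR adjusted p = 0.00162), both with all monolayer libraries below all crypt libraries. Kif13b (GAKIN), which carries cargo bound to Dlg1, was at 194, 226 and 193 CPM in the crypts, 162, 162 and 185 on day 3, 179, 178 and 182 on day 4 and 207, 245 and 205 on day 5. Day 3 lay below the crypts and day 5 above day 3, and no change was called over all days (-0.12 ± 0.08 (edgeR adjusted p = 0.196)). The changes were -0.27 ± 0.10 (edgeR adjusted p = 0.0232) on day 3 against crypts and 0.37 ± 0.10 (edgeR adjusted p = 0.00965) from day 3 to day 5, and both calls were lost without day 3 replicate 1 or 2. The first was also lost without crypts replicate 2 (-0.19) and the second without day 5 replicate 2 (0.28). Kif1a, the axonal carrier of synaptic vesicle precursors, changed by 0.70 ± 0.42 (edgeR adjusted p = 0.158), by 1.82 (edgeR adjusted p = 0.00229) without crypts replicate 3 and by 0.24 without crypts replicate 2.

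Kinesin-2 genes shifted towards Kif3a and Kif3c. Kif3a and Kif3b form the motor of anterograde transport in cilia and of some vesicles, with Kifap3 as their accessory subunit, and Kif3c is an alternative partner of Kif3a. Kif3a was at 22.6, 17.4 and 18 CPM in the crypts, 59.4, 50.5 and 51.5 on day 3, 56.9, 60.8 and 61.8 on day 4 and 60.1, 55.1 and 57.5 on day 5, with all monolayers above all crypts and a rise of 1.57 ± 0.12 (edgeR adjusted p = 1.34e-09). Kif3c was at 0, 2.22 and 0.812 CPM in the crypts, 12.7, 13.9 and 15.5 on day 3, 14.5, 15.3 and 17.1 on day 4 and 18.5, 16.5 and 18.2 on day 5. The highest crypt library was far below the lowest monolayer library, and the change was 3.84 ± 0.40 (edgeR adjusted p = 1.33e-07), 14.3-fold. The size of this change depended on 1 crypt library, since it was 4.84 without crypts replicate 2. Exons of Kif3c and of the antisense gene 1110002L01Rik overlap by 2617 bases, and 1110002L01Rik, at 9.94 ± 4.76 CPM in crypts and 9.44 ± 2.23 in monolayers, was not called (-0.10 ± 0.28, edgeR adjusted p = 0.767). Kif3b was at 60.9, 65.8 and 68.8 CPM in the crypts, 76.7, 72.2 and 63.9 on day 3, 76.1, 67 and 66.1 on day 4 and 103, 92.3 and 82.2 on day 5, overlapping the crypts on day 3 and day 4 and above them on day 5. Its change was 0.24 ± 0.10 (edgeR adjusted p = 0.0377) over all days and 0.38 ± 0.11 (edgeR adjusted p = 0.0238) from day 3 to day 5. The first of these calls was lost with DESeq2 (0.20), with library totals (0.05) and without any 1 of crypts replicates 1 and 2, day 3 replicates 1 and 2 and day 4 replicate 1 (0.20 to 0.25), and the second without day 3 replicate 2 or 3 or day 5 replicate 1 or 2 (0.30 to 0.39). The CPM ratio of Kif3a to Kif3b was 0.299 ± 0.0631 in crypts and 0.760 ± 0.0547 on day 3, 0.863 ± 0.101 on day 4 and 0.627 ± 0.0639 on day 5. Kifap3, looked up after these values were seen, rose by 0.50 ± 0.16 (edgeR adjusted p = 0.0108). Kif17, the homodimeric kinesin-2, had 10 counts over the crypts, and 4, 27 and 7 over days 3, 4 and 5.

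The 2 transport kinesins of the kinesin-4 family went opposite ways. Kif21a, which limits microtubule growth at the cell cortex, was at 151, 167 and 149 CPM in the crypts, 129.7, 145 and 141 on day 3, 125, 132 and 145 on day 4 and 112, 110.3 and 111 on day 5. It was below the crypts at each day and lowest on day 5, with -0.29 ± 0.07 (edgeR adjusted p = 0.00209) over all days and -0.32 ± 0.09 (edgeR adjusted p = 0.0167) from day 3 to day 5, the latter lost without day 3 replicate 2 (-0.29), day 3 replicate 3 (-0.31) or day 5 replicate 2 (-0.32). Against crypts Kif21a was called on day 5 (-0.49, edgeR adjusted p = 0.000184). It was not called on day 3 (-0.16, edgeR adjusted p = 0.13) or day 4 (-0.21, edgeR adjusted p = 0.0507). Kif21b, which acts on microtubule dynamics and cargo in neurons and lymphocytes, was at 106, 109.6 and 111 CPM in the crypts, 105, 109 and 115 on day 3, 165, 148 and 165 on day 4 and 144, 166 and 161 on day 5. Day 3 overlapped the crypts, while day 4 and day 5 lay above both. Kif21b was the 1 transport kinesin called between day 3 and day 4 (0.54 ± 0.09 (edgeR adjusted p = 0.00294)), and changed by 0.37 ± 0.08 (edgeR adjusted p = 0.000363) over all days. The 12 leukocyte markers summed to between 19.5 and 45.9 CPM in crypts, 31.0 and 41.0 on day 3, 36.6 and 54.6 on day 4 and 24.6 and 27.4 on day 5, with Cd3g among those at 0 in every monolayer group. Of the 7 leukocyte markers tested, 4 were lower and 2 higher in monolayers, beside 32.8% and 30.7% of all genes. Cd68, a marker of macrophages, was at 1.35 ± 0.744 CPM in crypts, 31.2 ± 6.49 on day 3, 40.8 ± 6.37 on day 4 and 22.1 ± 2.47 on day 5 (4.41 ± 0.27 over all days, edgeR adjusted p = 6.57e-11), and Csf1r, a receptor of macrophages, was at 0.287 ± 0.0967, 1.30 ± 0.926, 3.92 ± 3.16 and 1.59 ± 0.777 (2.73 ± 0.81). Ptprc, which marks all leukocytes, went from 17.0 ± 6.48 CPM in crypts to 0.233 ± 0.235 in monolayers (n = 9). Their part in the Kif21b values was not tested.

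The minus-end transport kinesins also split. Kifc3, which works at the zonula adherens of epithelial cells, had crypt libraries between 21.8 and 31.8 CPM and monolayer libraries between 65.9 and 109 CPM. It rose by 1.88 ± 0.14 (edgeR adjusted p = 1.22e-09), 3.69-fold, and was not called between days. Kifc2, known from neurons, was at 18.6, 15.7 and 14.2 CPM in the crypts, 3.1, 3.8 and 5.84 on day 3, 7.32, 10.9 and 6.3 on day 4 and 12.1, 11.3 and 9.19 on day 5. All monolayer libraries lay below the crypts and day 5 lay above day 3, with -1.15 ± 0.23 (edgeR adjusted p = 0.000276) over all days and 1.35 ± 0.31 (edgeR adjusted p = 0.0041) from day 3 to day 5. Its exons share 163 bases with Cyhr1 on the other strand, a gene at 69.5 ± 3.44 CPM in crypts and 57.4 ± 5.01 on day 3.

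**Figure D5:**
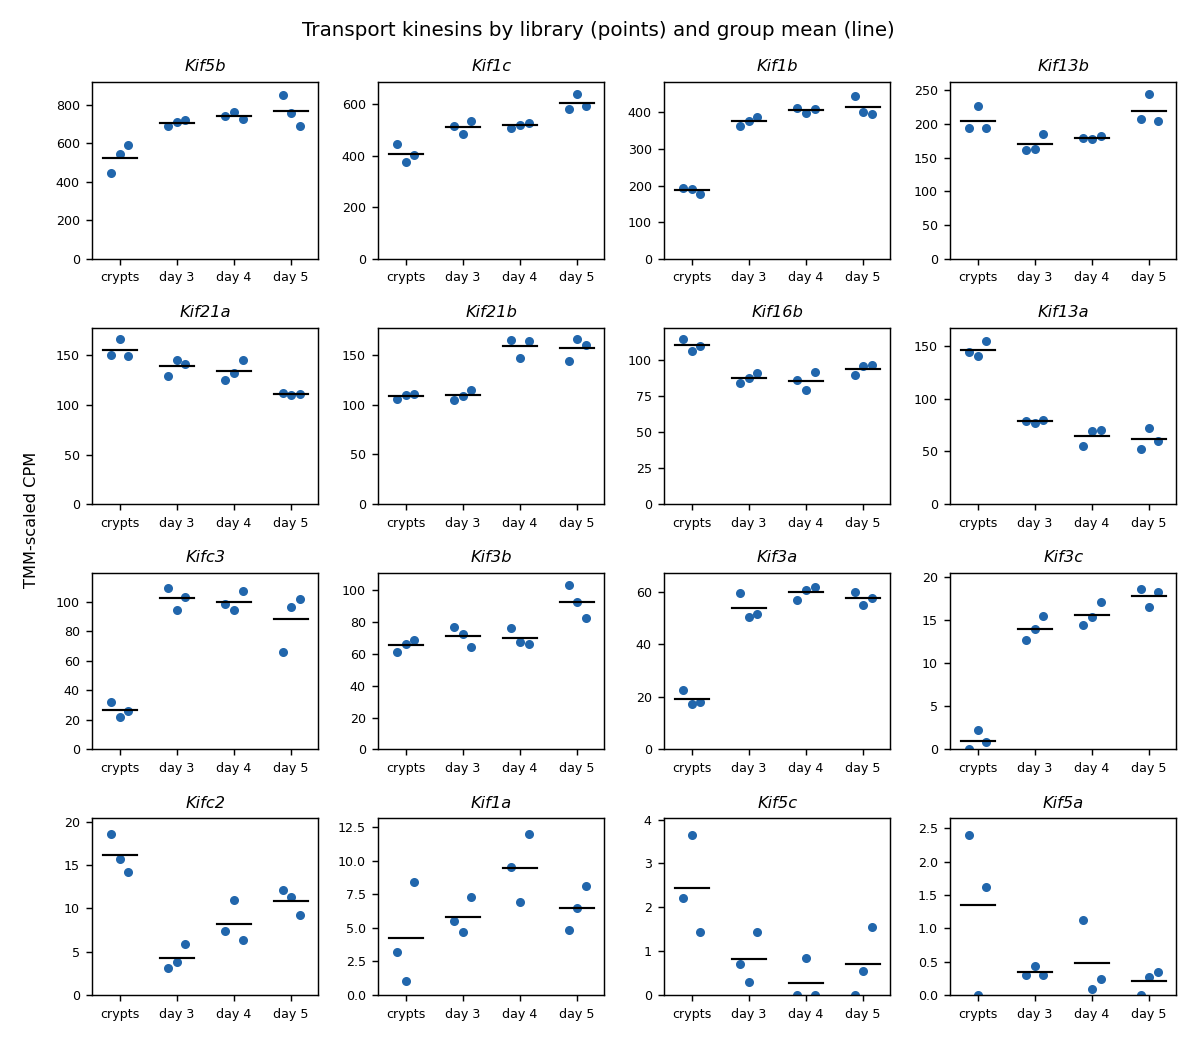
TMM-scaled CPM of the 16 transport kinesins tested, 1 panel per gene with its own axis from 0, as 1 point per library and a line at the group mean. The panels of Kif1b, Kif3a, Kif3c and Kifc3 show monolayer points well above the crypts at all days, those of Kif13a, Kif16b and Kifc2 show them below, and few panels show a step between days.

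Counts of transport kinesins moved with some choices. When libraries were scaled by their totals alone, the median of all genes tested was -0.21 for monolayers against crypts, and 37.7% of the calls were higher, against 48.3% in the main fit. For days 3, 4 and 5 against crypts these shares were 39.9, 40.0 and 37.7% against 50.4, 50.2 and 49.6%. Under library totals Kif13b was called lower in monolayers (-0.30, edgeR adjusted p = 0.00248), Kif5a was called lower (-2.11), Kif21b and Kif3b lost their calls (0.18 and 0.05), and the other transport kinesins called in monolayers kept theirs. The 5 transport kinesins called higher from day 3 to day 5 went down to 3 without day 3 replicate 1, day 3 replicate 3 or day 5 replicate 1, and to 2 without day 3 replicate 2 or day 5 replicate 2.

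Genes that work with the transport motors were mostly higher in monolayers, in comparisons where 30.7% of all genes were called higher and 32.8% lower. Of 18 cargo adaptors and light chains tested, 13 rose and 4 fell, with a median of 0.48, led by the light chain gene Klc3 (3.43 ± 0.29, edgeR adjusted p = 7.51e-09), Map7d1, whose product helps kinesin-1 bind microtubules (2.66 ± 0.11), and the adaptor gene Mapk8ip1 (2.27 ± 0.59). The summed level of the 20 genes on this list stood clear above the crypts only on day 5. It was 1477 ± 36.5 CPM in crypts, 1418 ± 11.1 on day 3, 1481 ± 21.3 on day 4 and 1651 ± 83.6 on day 5 (SD, n = 3 each). Of 23 genes of dynein and dynactin, the motor that runs to minus ends, 13 rose and 4 fell, with a median of 0.43. The largest changes were those of the dynein intermediate chains Dync1i1 (-1.96 ± 0.56, edgeR adjusted p = 0.00561), of neurons, and Dync1i2 (1.49 ± 0.08), of most tissues, and of the adaptor Bicd2 (1.43 ± 0.13). Of 14 tubulin genes, 10 rose, with a median of 1.01, among them Tubb2b (4.55 ± 0.29, edgeR adjusted p = 1.23e-10) and Tubb6 (4.53 ± 0.40), and Tubb4a, which had no count in crypts and 61, 86 and 41 counts over days 3, 4 and 5. From day 3 to day 5, 6 of the 14 tubulin genes fell, beside 10.5% of all genes, with a median of -0.56. Over the same days 4 of the 18 adaptors and light chains rose and 1 fell, and 2 of the 23 dynein genes rose and 1 fell, beside 9.9% of all genes called higher, so the dynein shares were below those of all genes in both directions.

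Of the 4 tested kinesins of cilia and signalling, 2 rose in monolayers, Kif9, of motile cilia and flagella, and Kif19a, which sets cilium length. Kif19a was at 0.801, 0.13 and 1.26 CPM in the crypts, 3, 3.73 and 4.17 on day 3, 4.13, 1.5 and 4.72 on day 4 and 3.43, 5.83 and 5.2 on day 5, with every monolayer library above every crypt library, and changed by 2.35 ± 0.57 (edgeR adjusted p = 0.00148), or by 3.21 without crypts replicate 3. Kif9 had crypt libraries between 0.522 and 3.20 CPM and monolayer libraries between 4.85 and 9.59 CPM, and changed by 1.62 ± 0.42 (edgeR adjusted p = 0.0027). Kif24, which restrains cilium assembly from the centriole, was not called (-0.17 ± 0.21 (edgeR adjusted p = 0.505)). Kif27, of motile cilia, was at 2.4, 2.09 and 2.08 CPM in the crypts, 1.4, 0.933 and 0.985 on day 3, 0.603, 0.561 and 0 on day 4 and 6.85, 1.61 and 2.08 on day 5. Day 5 replicate 1 stood above all other libraries, and no call was made over all days (-0.90 ± 0.61 (edgeR adjusted p = 0.204)). From day 4 to day 5 Kif27 changed by 3.04 ± 0.84 (edgeR adjusted p = 0.0325), which was lost without any 1 library of day 3 or day 4 and was 2.14 (edgeR adjusted p = 0.187) without day 5 replicate 1. Kif7, of Hedgehog signalling at the cilium tip, had 8 counts over the crypts and 1, 11 and 7 over days 3, 4 and 5, and Kif6 had none in the crypts and 3, 3 and 8. Of 20 cilium genes tested, 7 rose and 2 fell in monolayers, beside 30.7% and 32.8% of all genes, with a median of 0.30, so the share that rose was near that of all genes. The largest changes were those of the intraflagellar transport genes Ift57 (3.78 ± 0.64, edgeR adjusted p = 4.57e-05) and Ift81 (1.31 ± 0.20), and of Bbs1 (2.02 ± 0.57), a gene of the BBSome.

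Kif12 showed the largest change of the family. Kif12, a motor known from the epithelia of kidney, liver and pancreas, was at 20.2, 18.8 and 24 CPM in the crypts, 0.499, 0.359 and 0.682 on day 3, 0.172, 0.561 and 0 on day 4 and 0.202, 0 and 0 on day 5. All monolayer libraries lay far below all crypt libraries, and most were at or near the floor. Over the 9 monolayer libraries together there were 28 counts against 511 in the crypts, a ratio of pooled CPM of 68.9 (exact 95% interval 47.1 to 105), and on day 5 there was 1 count, a ratio of 471 (84.2 to 18640), intervals that cover counting error only. The edgeR change was -6.69 ± 0.42 (edgeR adjusted p = 1.06e-10), and -7.42 without day 5 replicate 1. Between day 3 and day 5 it was -3.13 ± 1.11 (edgeR adjusted p = 0.0533), and it was called without day 4 replicate 2 (-3.13), day 4 replicate 3 (-3.14) or day 5 replicate 1 (-5.37), and was -2.30 without day 5 replicate 2. Kif26a, a non-motile kinesin that restrains growth factor signalling in enteric neurons, had 49 counts over the crypts and 3, 2 and 0 over days 3, 4 and 5. It was 37.0-fold lower in monolayers by pooled CPM (exact 95% interval 14.8 to 119), and at least 15.1-fold lower on day 5 against a floor of 3 counts over the group. Kif26b, its relative, had 34 counts against 14, 13 and 2, a ratio of 4.42 (2.62 to 7.53) for crypts against monolayers.

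Markers of several cell types were, like Kif12, Kif26a and Kif26b, lower in monolayers than in crypts. Beside the goblet cell list, 9 of 10 enteroendocrine markers, 5 of 6 tuft cell markers and 7 of 7 markers of absorptive colonocytes were called lower in monolayers. Of all genes tested, 32.8% were called lower in this comparison. Enteroendocrine markers summed to between 569 and 1349 CPM in crypts and 22 and 46.4 in monolayers, with Pcsk1 at 0 on day 4 and day 5 and Insm1 at 0 on day 5. Tuft cell markers summed to between 31.4 and 55.5 CPM in crypts and 3.77 and 12.4 in monolayers, with Alox5ap among those at 0 at each day and Pou2f3 on day 3 and day 5. Markers of absorptive colonocytes summed to between 4458 and 5193 CPM in crypts and 102 and 938 in monolayers, with Car4 at 0 on day 3 and day 4. Their sum was 122 ± 19.8 CPM on day 3, 266 ± 100 on day 4 and 860 ± 111 on day 5 (SD, n = 3 each). From day 3 to day 5, 6 of these 7 markers were called higher, beside 9.9% of all genes. Kif12, Kif26a and Kif26b did not rise with them. Their mean CPM went from 0.513 to 0.0672, from 0.0838 to 0 and from 0.379 to 0.0598 over these days, all near or below the floor. The 10 markers of fibroblasts and smooth muscle summed to between 17.0 and 84.6 CPM in crypts and 1.72 and 5.44 in monolayers, with Dcn and Lum at 0 in every monolayer group. The sums of neuron and glia markers overlapped, at 3.26 to 9.56 CPM in crypts and 2.90 to 7.53 in monolayers, and 1 of the 3 tested was called lower. Whether any of these cell types had a part in the values of the 3 genes was not tested.

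Per length of exon, the order of the family changed below its top. Divided by the length of the exon union of GENCODE M21 in kilobases, Kif5b led with 65.9 ± 9.26 CPM per kb in crypts and 96.1 ± 10.3 on day 5, and Kif1c followed with 56.1 ± 4.79 and 83.1 ± 4.18. In crypts their ranges met, at 55.7 to 73.8 for Kif5b and 51.7 to 61.2 for Kif1c. Kif21a came next in crypts, at 24.0 ± 1.48, and Kif13a after it, at 18.1 ± 0.887, with no overlap between them. Kif1b took the third place on day 4 and day 5, with 23.5 ± 1.55 CPM per kb on day 5. Behind it on day 5 came Kif2a, Kif21a, Kif13b, Kifc3, Kif3b and Kif3a, from 18.2 to 16.1 CPM per kb. Kif2a stood above Kif21a without overlap, and the neighbours after Kif21a overlapped. Kif11 went from rank 10 of 42 in crypts to rank 28 on day 5, Kif14 from 25 to 35 and Kif12 from 15 to 38. Kif3a went from rank 19 to 9, Kifc3 from 21 to 7 and Kif3c from 36 to 15. Kif20b, at 10.9 ± 0.894 CPM per kb, and Kif11, at 10.8 ± 1.72, led the mitotic kinesins other than Kif2a in crypts, and Kif23 did so on day 5, at rank 13.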

How the data were processed

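Total RNA of mouse colonic crypts and of monolayers at days 3, 4 and 5 was measured in 12 libraries. The authors deposited counts, whole numbers of reads per gene symbol in 1 table per library, with no normalization. The tools listed in the submitters' processing notes are CASAVA 1.9, TopHat2 and HTSeq, and these notes list mm9 as well as mm10 without saying what each was for. Annotation and strand setting were not given in the sources used here. Each table also held 5 summary lines that name no gene, which stayed out of library sizes and tests (reads in no gene were 38.7 to 49.0% of all reads counted). Reads without a unique alignment have their own summary line and were not counted to genes.

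Samples were grouped by their titles. In R 4.3.3, genes were kept by filterByExpr with a minimum count of 10 and scaled by TMM, and edgeR 4.0.16 fitted its quasi-likelihood model to all 12 libraries with the group as the term. The monolayers, as the mean of their 3 days, and then every single day were compared with crypts, and the days with each other, with Benjamini-Hochberg adjustment over the 12863 genes tested. Groups were compared by fold change, standard error and adjusted p, and classes of genes by counts and medians with no test. The fit was tested on simulated data. Alternatives were DESeq2 1.42.0, its size factors, library totals, other filters, fits of only the groups compared, a replicate block and leaving out each library. Precision is limited by 3 libraries per group and, for scarce genes, by depth. Counting intervals are exact and cover counting error only.

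The members, classes and lists were chosen with earlier results of these data known. All tested members are named. Values in every library are given for the 5 mitotic and 6 transport kinesins of highest mean CPM, for members called from day 3 to day 5 and for 5 more with the largest called changes, and up to 3 genes are named per partner list by largest called change with a mean of at least 1 CPM. Same-numbered libraries of different groups did not deviate together (r from -0.03 to 0.06 over 18 pairs), so replicate numbers serve as names only. Promoter windows come from RefSeq (GRCm38.p6) and were matched by symbol, and exon lengths and overlaps come from GENCODE M21. If strand was not used in the counting, reads of overlapping genes cannot be told apart, and a few genes that overlap members or belong to the marker lists are not reported here. Protein sequences were not used here.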

Additional observations from a re-analysis of the deposited data

Results flagged for a closer look

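Kif23, the centralspindlin motor, differed from the crypts by an amount that changed between days. It was higher than crypts on day 3 (0.82) and day 4 (0.57), and on day 5, where its libraries lay within the range of the crypts, the change was -0.35 and not called, and the tests of the difference between days gave -1.17 ± 0.18 for day 5 against day 3 (edgeR adjusted p = 0.000144) and -0.92 ± 0.18 for day 5 against day 4 (edgeR adjusted p = 0.00371).

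Kif13b, a carrier of Dlg1-bound cargo, differed from crypts by -0.27 at day 3 and by 0.10 at day 5, and the difference between these days was 0.37 ± 0.10 (edgeR adjusted p = 0.00965). Kif27, of motile cilia, differed from crypts by -2.39 at day 4 and by 0.65 at day 5, a difference of 3.04 ± 0.84 (edgeR adjusted p = 0.0325), with day 5 replicate 1 at 6.85 CPM beside 1.61 and 2.08 CPM in the other 2 libraries of that day.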

How the results depend on the processing

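Of 3027 values of single kinesins under an alternative, 2888 kept their direction and their side of the threshold, 115 lost a call, 21 gained one and 3 changed sign. The sign changes were all from day 3 to day 5 and in genes that were not called: leaving out 1 library at a time, Kif1a ranged from -0.026 (day 5 replicate 3 left out) to 0.36, and Kif5c from -1.29 to 0.52 (day 3 replicate 3 left out), with 0.30 when day 5 replicate 1 was left out. With the replicate number as a block, the kinesins called from day 3 to day 4 went from 2 to 1, the mitotic kinesins called higher in monolayers from 1 to 2 and the transport kinesins called lower from day 3 to day 5 from 1 to 2. These numbers pair no libraries by the labels, and 6 of 12 libraries correlated best with their own number. With no filter the last 2 of these counts were also 2, and with DESeq2 the last was 2. Leaving out 1 library at a time gave 1 to 2 kinesins called from day 3 to day 4, 1 to 2 mitotic kinesins called higher in monolayers, 0 to 2 transport kinesins called lower and 2 to 5 called higher from day 3 to day 5. The class difference in median change between mitotic and transport kinesins was -2.03 in monolayers against crypts and ranged from -2.23 to -1.86 with 1 library left out. It was -2.12 without Kif2a and Kif2b and also without Kifc1 and Kifc5b. Depth limits the genes under about 10 counts per group, such as Kif6, Kif7 and Kif17. The causes of these changes were not tested.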
